A study of Mus musculus with 9 samples.

Results

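Open chromatin was examined at 40 genes of the BMP and TGF-beta pathways, out of 22238 protein-coding genes of the mm9 annotation, in ATAC-seq peak lists of 9 mouse libraries. A gene was included by its known place in the pathway, but the list was drawn up with earlier results of these data known. Each locus was the gene body extended by 20 kb on both sides, and a peak was counted there when its midpoint lay in that window. Peaks within 1 kb of a transcription start site (TSS) of the gene were counted as promoter peaks, and peaks farther than 1 kb from the TSS of every protein-coding gene as distal peaks. By role, the 40 genes were 13 ligands, 11 receptors and co-receptors, 7 Smads, 4 Id genes and 5 antagonists or modulators, and none of their windows overlapped.

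All 9 libraries came from GFP-positive cells sorted from Swiss Webster embryos at E9.5. Each library pooled embryos, fewer in every cKO library than in every Tbx1-Cre Ctrl library in the study's sample summary. Every embryo carried Rosa26-GFPflox/+, a reporter that Cre recombinase turns on for good. In Mesp1-Cre Ctrl (3 libraries, genotype Mesp1Cre;Rosa26-GFPflox/+) the marked cells descend from Mesp1-expressing early mesoderm. In Tbx1-Cre Ctrl (3 libraries, Tbx1Cre;Rosa26-GFPflox/+) Cre is expressed from the Tbx1 locus itself, so that these controls had a single working Tbx1 allele and the marked cells include Tbx1-expressing endoderm and ectoderm beside mesoderm. In Tbx1-Cre cKO (3 libraries, Tbx1Cre/flox;Rosa26-GFPflox/+) the other allele was floxed, and Tbx1, which encodes a T-box transcription factor, was inactivated in the same lineage. All samples are labelled pharyngeal mesoderm. The tissue label is pharyngeal apparatus and heart for Mesp1-Cre and the same with back for Tbx1-Cre, whereas the study's methods describe dissection without the heart for all ATAC-seq samples. If the labels hold, lineage and dissection cannot be told apart between these controls. The length of the first Mesp1-Cre list matches no Mesp1-Cre replicate in the study's sample summary, and the other lists stand there under other replicate numbers. The number of genes with fewer distal peaks in Mesp1-Cre Ctrl is also given without the first list. So is the Mesp1-Cre presence of distal regions found in every Tbx1-Cre Ctrl and no cKO library. Other values over the Mesp1-Cre group are given only with it.

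BMPs, TGF-betas, activins and Nodal are secreted ligands that bring together type I and type II serine/threonine kinase receptors. The receptors phosphorylate Smad1 and Smad5 (BMP branch) or Smad2 and Smad3 (TGF-beta, activin and Nodal branch), which enter the nucleus with Smad4. Smad6 and Smad7 inhibit the signal and are themselves induced by it, and the Id genes are direct BMP targets that keep progenitors from differentiating. In the pharyngeal apparatus and the outflow tract, BMP signals steer mesoderm towards the cardiac fate, and secreted antagonists such as noggin and gremlin set where they act.

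The locus of the targeted gene, Tbx1, carried 5, 4 and 4 peaks in Tbx1-Cre Ctrl, 1, 0 and 0 in cKO, and 2, 2 and 2 in the Mesp1-Cre controls. Its promoter held a peak in every Tbx1-Cre Ctrl library and in no cKO library. The lists as a whole differed in the same direction: they held 43298 to 49490 peaks in Tbx1-Cre Ctrl, 19772 to 29251 in cKO and 25485 to 42650 in Mesp1-Cre Ctrl. The cKO lists held on average 52.3% of the peaks and 36.6% of the distal peaks of the Tbx1-Cre Ctrl lists. Fewer peaks at a locus in cKO is therefore what a typical locus showed. Counts of genes called below are set against all genes, whereas sums by role, sums of promoter peaks and counts at single loci are not. Summed distal peaks over 10 markers each were lower in every cKO library than in every Tbx1-Cre Ctrl library for pharyngeal mesoderm (8 to 18 against 20 to 29), endoderm (6 to 10 against 19 to 26), ectoderm and placode (9 to 13 against 24 to 31), endothelium and blood (8 to 17 against 27 to 36) and neural crest (7 to 15 against 25 to 38). In the same order of lists, a promoter peak was found in at least 1 Tbx1-Cre Ctrl library at 9, 6, 7, 5 and 7 of the 10 markers. In at least 1 cKO library it was found at 8, 2, 4, 4 and 5. No promoter peak was found in any library at Shh, Nkx2-1 and Cldn6 of the endoderm list, and Trp63 and Fgf8 of the ectoderm list. The same held for Gata1, Cdh5, Tie1 and Pecam1 of the endothelium and blood list, and Sox10, Foxd3 and Tfap2b of the neural crest list. The part of cell mixture, list length and sequencing depth in the results below was not tested.

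The 5 stretches of reference sequence below are shown because the regions they come from illustrate both patterns at these loci. The first set is the central 200 bases of distal regions that had a peak in all 3 Tbx1-Cre Ctrl libraries and in no cKO library: an intronic region of Acvr1 and an intronic region of Bmpr1b that were also open in all 3 Mesp1-Cre Ctrl libraries, and the region with the largest mean peak width in Tbx1-Cre Ctrl, in an intron of Tgfbr3. All are on the plus strand of NCBIM37 (mm9). Capitals mark the T-box motif AGGTGT, the SMAD box CAGAC and the GC-rich SMAD site GGCGCC on either strand.
Acvr1, chr2:58402427-58402626: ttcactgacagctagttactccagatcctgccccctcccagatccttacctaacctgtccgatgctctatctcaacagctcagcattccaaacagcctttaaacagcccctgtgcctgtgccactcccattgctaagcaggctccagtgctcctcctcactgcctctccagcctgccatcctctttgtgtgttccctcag
Bmpr1b, chr3:141788539-141788738: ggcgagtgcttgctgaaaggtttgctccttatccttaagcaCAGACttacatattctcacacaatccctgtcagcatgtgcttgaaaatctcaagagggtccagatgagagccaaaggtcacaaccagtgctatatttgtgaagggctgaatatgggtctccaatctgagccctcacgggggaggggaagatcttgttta
Tgfbr3, chr5:107697657-107697856: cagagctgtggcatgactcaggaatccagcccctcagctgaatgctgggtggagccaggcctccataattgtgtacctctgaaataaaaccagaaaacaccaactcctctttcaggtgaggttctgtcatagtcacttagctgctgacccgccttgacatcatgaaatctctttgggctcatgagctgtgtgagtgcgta

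The second set comes from Id1, which had peaks in all groups upstream of the gene. It is the centre of an intergenic region upstream of the gene that had a peak in all 9 libraries, and the 200 bases that end just over 1000 bases before the TSS. The latter hold a GGCGCC and 4 SMAD boxes, which start at -1193, -1034, -1018 and -1006 from the TSS.
Id1 distal region, chr2:152555370-152555569: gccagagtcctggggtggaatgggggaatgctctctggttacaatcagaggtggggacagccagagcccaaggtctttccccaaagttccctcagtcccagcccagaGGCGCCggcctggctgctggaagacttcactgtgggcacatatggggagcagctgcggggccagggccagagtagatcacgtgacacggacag
Id1 upstream, chr2:152560787-152560986: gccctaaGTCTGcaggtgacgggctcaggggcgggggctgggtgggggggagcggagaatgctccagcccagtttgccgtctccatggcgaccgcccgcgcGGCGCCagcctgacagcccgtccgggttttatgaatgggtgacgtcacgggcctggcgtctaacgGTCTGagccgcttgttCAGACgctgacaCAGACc

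Over the 200 central bases of 57461 distal regions genome-wide, AGGTGT was present in 8.31%, CAGAC in 43.8% and GGCGCC in 3.26%. In the 208 distal regions of the pathway loci the shares were 8.65%, 47.1% and 7.69%. Of the 20 distal regions with a peak in all Tbx1-Cre Ctrl libraries and in no cKO library, 1 held AGGTGT, 10 held CAGAC and 0 held GGCGCC. Of the 16 distal regions with a peak in all 9 libraries, 3 held AGGTGT, 12 held CAGAC and 5 held GGCGCC, and their median GC content was 59% against 49.2% in the 20 and 50% genome-wide. These are letter matches in short windows, and a SMAD box of 5 letters is common in any sequence. The genome-wide shares are over all distal regions, not over those with the same pattern of peaks. The counts among the 20 and the 16 regions therefore cannot be read as particular to these loci.

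Distal peaks summed over the 40 loci came to 148, 110 and 117 in Tbx1-Cre Ctrl, 63, 39 and 22 in the cKO libraries, and 96, 45 and 73 with Mesp1-Cre. Every cKO library thus held fewer distal pathway peaks than every Tbx1-Cre Ctrl library, with cKO at 33.1% of the Tbx1-Cre Ctrl mean beside 36.6% for distal peaks of the whole lists. Promoter peaks differed less, with 51, 45 and 47 in Tbx1-Cre Ctrl, 37, 41 and 35 in cKO, with 46, 32 and 40 in Mesp1-Cre Ctrl. The share of all peaks that lay at the 40 loci was 0.387% ± 0.0277 in Tbx1-Cre Ctrl, 0.352% ± 0.0244 in cKO, with 0.36% ± 0.0267 in Mesp1-Cre Ctrl (SD, n = 3 each), and the ranges of the groups overlapped.

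**Figure D1:**
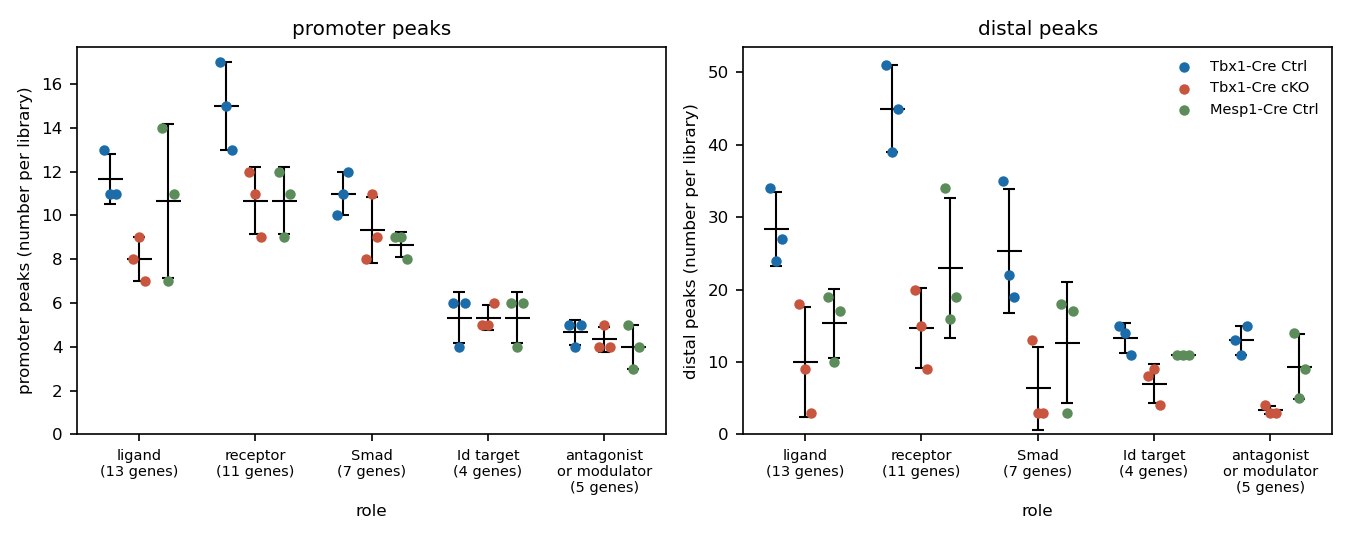
Promoter peaks (left) and distal peaks (right) per library (number, vertical axis), summed over the genes of each role (horizontal axis). Points are single libraries, the long bar is the mean and the whiskers are 1 SD (n = 3); distal peaks of the antagonists and modulators were 13, 11 and 15 in Tbx1-Cre Ctrl and 4, 3 and 3 in cKO, whereas promoter peaks of the Id genes numbered 4 to 6 per library in all groups.

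Of 38 pathway genes with a distal peak in at least 1 Tbx1-Cre library, 14 held fewer distal peaks in every cKO library than in every Tbx1-Cre Ctrl library (36.8%), and among 14836 genes tested the same way 20.7% did. They were Bmp3, Bmp6, Bmp7, Bmpr1b, Acvr1, Tgfbr2, Tgfbr3, Smad3, Smad6, Smad7, Id2, Id3, Fst and Bmper. For each of them the exact two-sided permutation test gave p = 0.1, the smallest that 3 libraries against 3 allow, so that no single locus could pass 0.05. No pathway gene held more distal peaks in every cKO library, and 0.0741% of all genes did. The median difference in distal peaks, cKO minus Tbx1-Cre Ctrl, was -1.33 over the 38 genes and -0.67 over all genes tested.

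The pathway loci were richer in distal peaks than a typical locus, with a median of 1.5 per library against 1, and loci with many peaks separate more easily. Among genes with a mean of 3 or more distal peaks over the 6 libraries, 8 of 11 pathway genes (72.7%) and 59.5% of 1451 genes held fewer in every cKO library. With a mean from 1 to under 3 it was 5 of 18 (27.8%) against 22.8% of 6397 genes, and below 1 it was 1 of 9 (11.1%) against 10.8% of 6988 genes. The separation of the 14 genes was not found with equal numbers of peaks. When the 19772 widest peaks of every library were kept, the number of peaks in the shortest list, no pathway gene held fewer distal peaks in every cKO library, beside 2.21% of all genes, and distal pathway peaks came to 40, 26 and 22 in Tbx1-Cre Ctrl and 30, 26 and 22 in cKO.

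**Figure D2:**
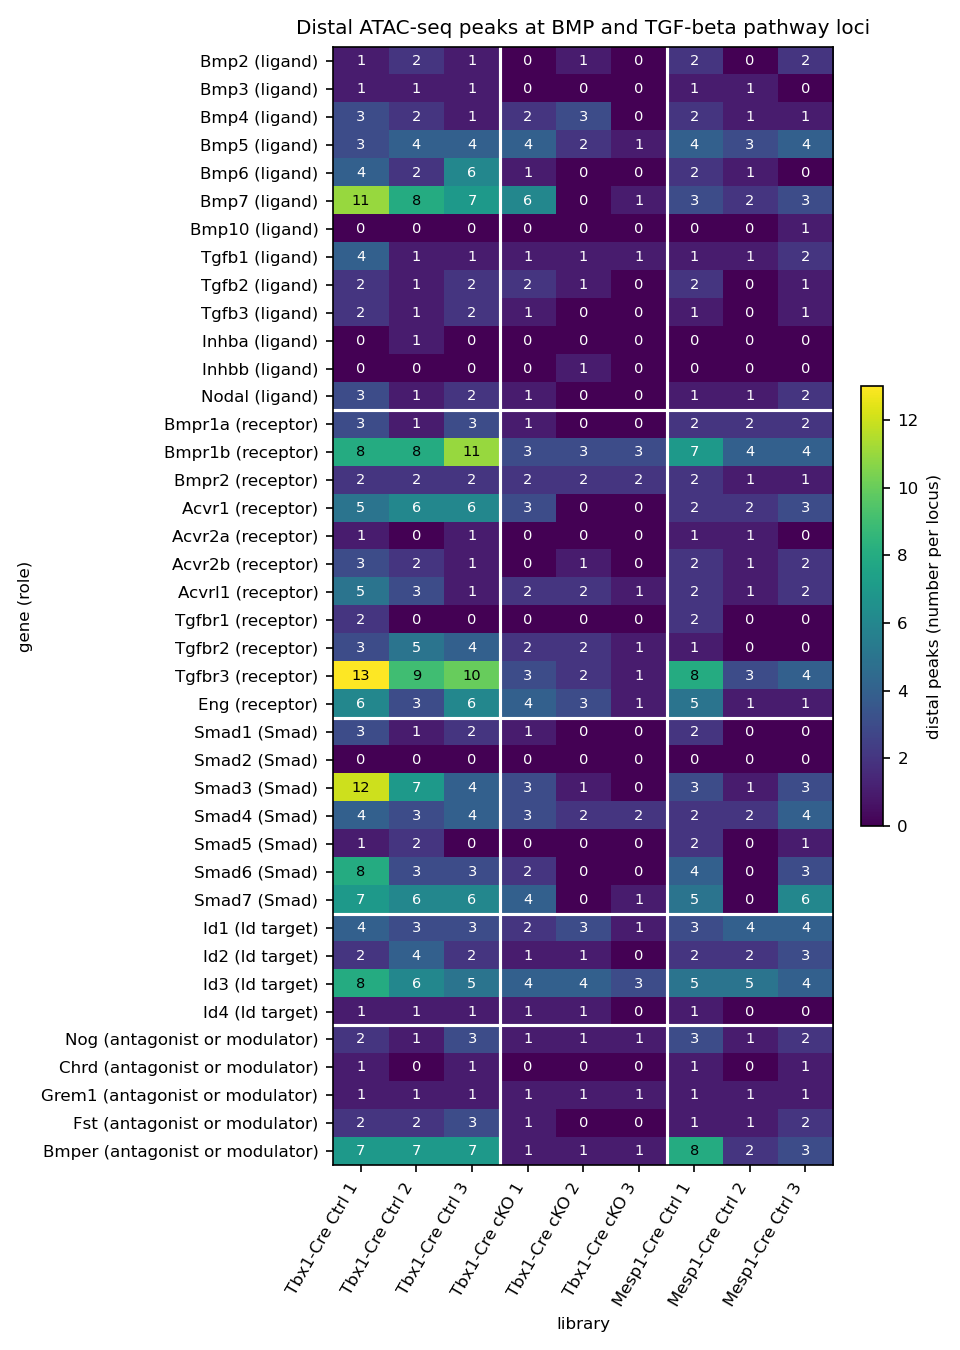
Number of distal peaks at each of the 40 loci (rows, ordered by role) in each of the 9 libraries (columns), with colour and digit giving the count. Tgfbr3 reaches 13 and Smad3 12 in Tbx1-Cre Ctrl 1, while Bmper holds 7 in each Tbx1-Cre Ctrl library and 1 in each cKO library.

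Among the ligands, Bmp7 carried the most distal peaks in every Tbx1-Cre Ctrl library. It encodes a BMP that forms strong dimers with Bmp2 and Bmp4, and its locus held 11, 8 and 7 distal peaks in Tbx1-Cre Ctrl, 6, 0 and 1 in cKO, with 3, 2 and 3 in Mesp1-Cre Ctrl. The cKO and the Mesp1-Cre libraries were all below the Tbx1-Cre Ctrl libraries, and the single high cKO library was the first, which had the longest list of its group. An intergenic region upstream of Bmp7 (chr2:172784127-172784983) had a peak in all 3 Tbx1-Cre Ctrl libraries, 531 ± 288 bp wide (SD, n = 3), and in no other library. Its promoter held 1 peak in each of the 9 libraries.

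Bmp6, a BMP linked to endothelium and iron balance, held 4, 2 and 6 distal peaks in Tbx1-Cre Ctrl, 1, 0 and 0 in cKO, with 2, 1 and 0 in Mesp1-Cre Ctrl. Bmp3, an atypical ligand that opposes BMP signalling, held 1 distal peak in each Tbx1-Cre Ctrl library and none in cKO, and its promoter also had 1 peak in each Tbx1-Cre Ctrl library, none in cKO, and 2 in a single Mesp1-Cre library. These are single peaks per library, and little weight rests on each.

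The cardiac ligands Bmp2 and Bmp4 did not separate. Bmp2 held 1, 2 and 1 distal peaks in Tbx1-Cre Ctrl and 0, 1 and 0 in cKO. At Bmp4, whose product acts in the outflow tract, the values were 3, 2 and 1 against 2, 3 and 0, and the ranges overlapped fully. The Bmp4 promoter had a peak in only 1 of 9 libraries, a Mesp1-Cre one, and the most shared open region at the locus lay in an intron of the gene (chr14:47006783-47007608), with a peak in 3 Tbx1-Cre Ctrl, 2 cKO and 3 Mesp1-Cre libraries. Bmp5 held 3, 4 and 4 distal peaks in Tbx1-Cre Ctrl, 4, 2 and 1 in cKO, with 4, 3 and 4 in Mesp1-Cre Ctrl.

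The other ligands held few distal peaks. Tgfb1, Tgfb2, Tgfb3 and Nodal, the ligand of early left-right and mesoderm patterning, held 0 to 4 per library. Inhba, Inhbb (activin subunits) and Bmp10, a ligand of the trabeculating heart, held at most 1. Bmp10 alone of the 40 genes had no promoter peak in any library.

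The receptors held the most distal peaks of any role, with 51, 39 and 45 in Tbx1-Cre Ctrl, 20, 15 and 9 in cKO, with 34, 16 and 19 in Mesp1-Cre Ctrl. Counts were not scaled to window length, which ran from 41160 bp at Id1 to 372290 bp at Bmpr1b. The Tgfbr3 window was 223060 bp long. Rankings of roles and loci by number of peaks therefore also carry differences in length. Tgfbr3 (betaglycan), a co-receptor that presents TGF-beta2 and binds inhibin, held 13, 9 and 10 distal peaks in Tbx1-Cre Ctrl, 3, 2 and 1 in cKO, with 8, 3 and 4 in Mesp1-Cre Ctrl. The 3 groups overlapped only between cKO and Mesp1-Cre Ctrl, and the difference of the Tbx1-Cre means, -8.67 peaks, was the largest of the 40 loci. Within its introns, 3 distal regions had a peak in every Tbx1-Cre Ctrl and no cKO library, of which chr5:107697365-107698149 had the widest peaks (606 ± 234 bp, SD, n = 3) and also had a peak in 2 Mesp1-Cre libraries. The region chr5:107651234-107651951 (532 ± 140 bp) and the region chr5:107558222-107558767 (365 ± 163 bp) had none in Mesp1-Cre Ctrl. A further intronic region of Tgfbr3, chr5:107624696-107625656, had a peak in all 9 libraries, with a mean width of 897 ± 107 bp in Tbx1-Cre Ctrl and 519 ± 210 bp in cKO.

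Bmpr1b, a type I BMP receptor, held 8, 8 and 11 distal peaks in Tbx1-Cre Ctrl, 3, 3 and 3 in cKO, with 7, 4 and 4 in Mesp1-Cre Ctrl. The groups did not overlap at all: cKO was lowest, Mesp1-Cre Ctrl intermediate and Tbx1-Cre Ctrl highest, and the exact permutation test over the 280 divisions of the 9 libraries gave p = 0.00357, the smallest that it can give. The p adjusted over the 15512 genes tested (Benjamini-Hochberg) was 0.386. The 3 Bmpr1b regions found in every Tbx1-Cre Ctrl and no cKO library were intronic. One of these, chr3:141788267-141789012, whose centre is printed above, had a widest peak of 465 ± 180 bp in Tbx1-Cre Ctrl. In Mesp1-Cre Ctrl it was 372 ± 275 bp (SD, n = 3 each), and all 3 libraries had it. The region was called as 2 peaks, both counted, in Tbx1-Cre Ctrl 1 (390 and 242 bp) and Tbx1-Cre Ctrl 2 (334 and 279 bp). The region chr3:141582590-141583222 (400 ± 171 bp) was seen in Tbx1-Cre Ctrl alone.

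Acvr1 (ALK2), a type I receptor of BMPs, held 5, 6 and 6 distal peaks in Tbx1-Cre Ctrl, 3, 0 and 0 in cKO, with 2, 2 and 3 in Mesp1-Cre Ctrl. Tbx1-Cre Ctrl stood above both other groups, which overlapped. Its intronic region chr2:58402059-58402995 was 519 ± 201 bp wide in Tbx1-Cre Ctrl and 625 ± 274 bp in Mesp1-Cre Ctrl (SD, n = 3 each), and the nearest cKO peak lay 15976 bp away. For the intronic region chr2:58385736-58386414 (376 ± 162 bp in Tbx1-Cre Ctrl) the nearest cKO peak was only 650 bp away, so that a cKO peak lay close by. In Tbx1-Cre Ctrl 1 this region was called as 2 peaks of 297 and 236 bp. Acvr1 was also 1 of 3 pathway genes with fewer promoter peaks in every cKO library, at 3, 3 and 3 against 1, 2 and 1, and a region at an alternative start site had a peak in all 3 Tbx1-Cre Ctrl and no cKO library.

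Tgfbr2, the type II TGF-beta receptor, held 3, 5 and 4 distal peaks in Tbx1-Cre Ctrl, 2, 2 and 1 in cKO, with 1, 0 and 0 in Mesp1-Cre Ctrl, so that its counts in the mesodermal lineage were below those of the mutant with a shared value of 1. Bmpr2, the type II BMP receptor, gave 2 distal peaks in each of the 6 Tbx1-Cre libraries. The widest distal region open in all 9 libraries belonged to it (chr1:59819443-59820973, between genes with its centre at -1273 from the TSS), with 1335 ± 181 bp in Tbx1-Cre Ctrl, 1049 ± 140 bp in cKO, with 978 ± 112 bp in Mesp1-Cre Ctrl (SD, n = 3 each). It lies just outside the 1 kb promoter limit, and Bmpr2 accordingly had a promoter peak in only 2 libraries. Eng (endoglin), an endothelial co-receptor, held 6, 3 and 6 distal peaks in Tbx1-Cre Ctrl and 4, 3 and 1 in cKO, with a shared value of 3. Bmpr1a held 3, 1 and 3 against 1, 0 and 0. Acvr2a, Acvr2b, Acvrl1 (ALK1) and Tgfbr1 held 0 to 5 distal peaks per library, and their groups overlapped.

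**Figure D3:**
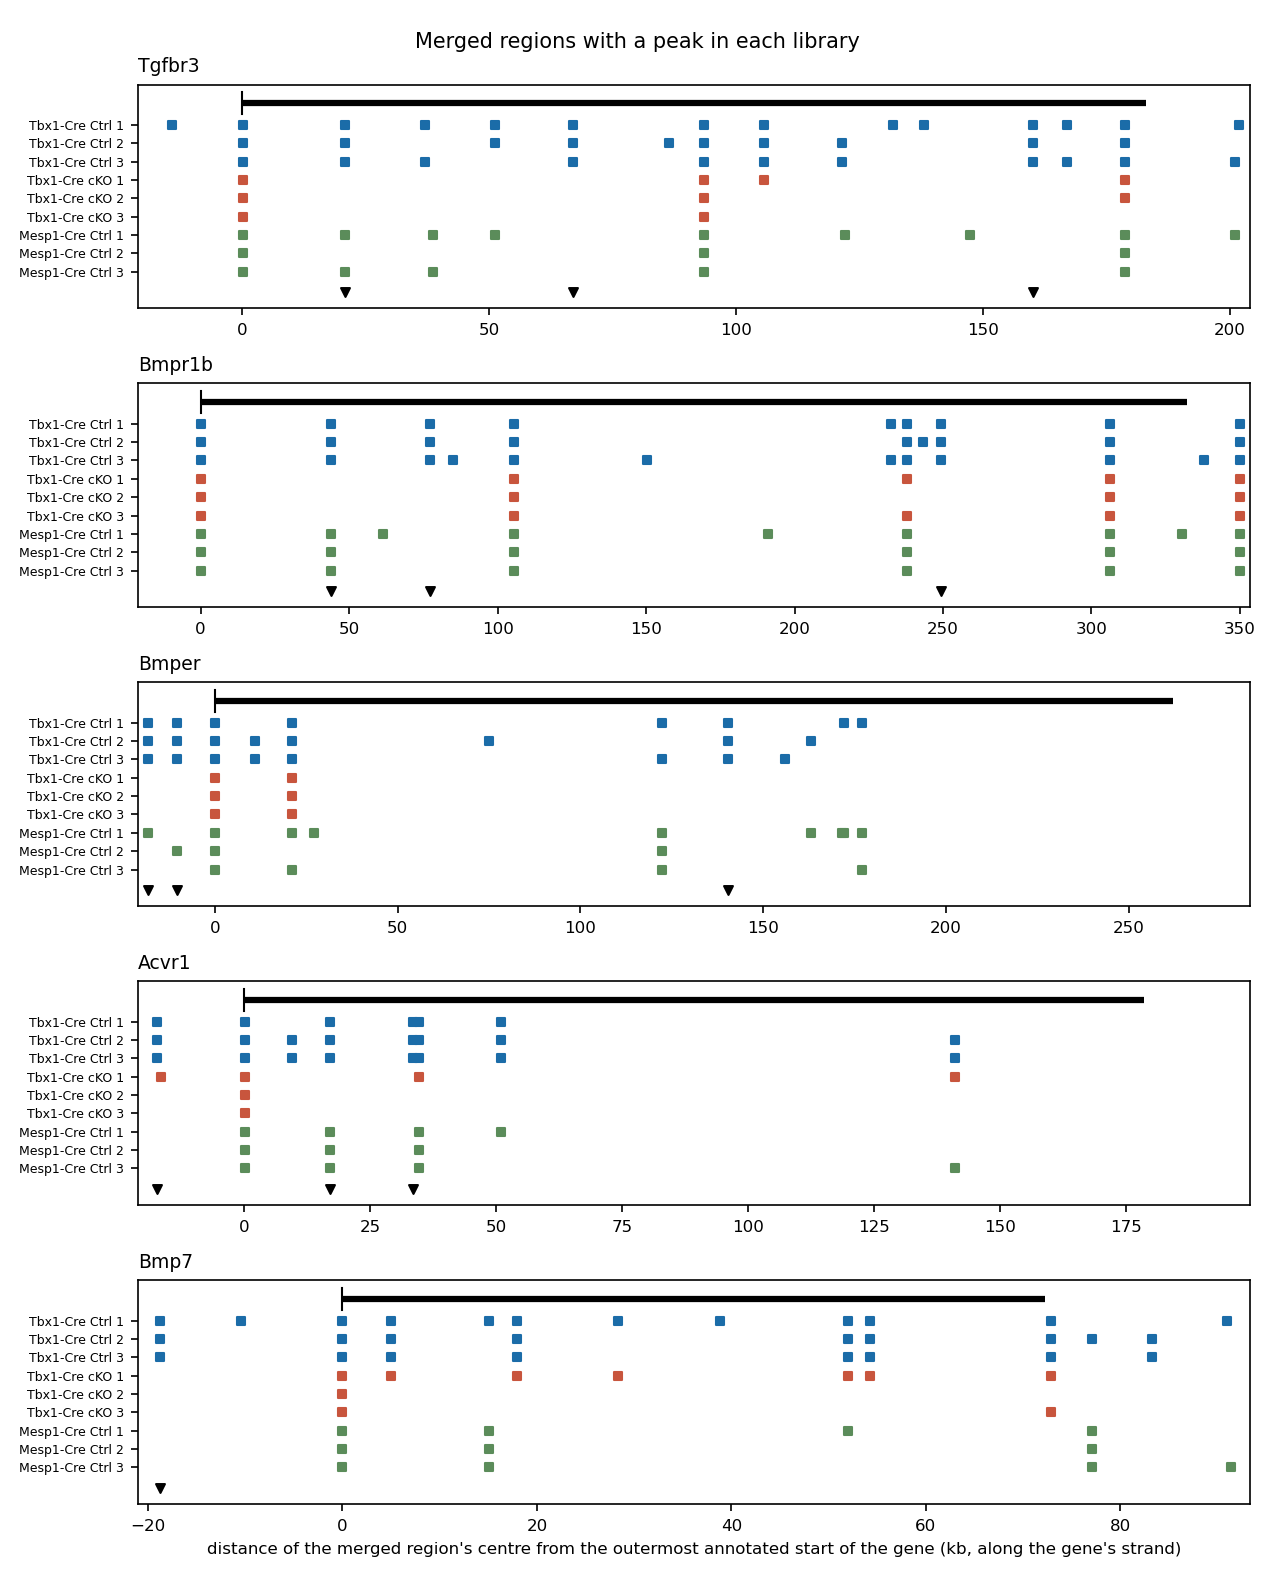
Merged regions with a peak (squares) at Tgfbr3, Bmpr1b, Bmper, Acvr1 and Bmp7 in each library (rows), against the distance of the region's centre from the outermost annotated start of the gene (kb, horizontal axis, along the strand of the gene); the black bar is the gene body and triangles mark distal regions with a peak in all 3 Tbx1-Cre Ctrl and no cKO library. Regions at the gene start are present in all 9 libraries at these 5 loci, and triangles number 3 at each of the first 4 loci and 1 at Bmp7.

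Among the Smads, distal peaks came to 35, 22 and 19 in Tbx1-Cre Ctrl, 13, 3 and 3 in cKO, with 18, 3 and 17 in Mesp1-Cre Ctrl. Smad3, the TGF-beta and activin effector, held 12, 7 and 4 distal peaks in Tbx1-Cre Ctrl, 3, 1 and 0 in cKO, with 3, 1 and 3 in Mesp1-Cre Ctrl. The spread among the Tbx1-Cre Ctrl libraries was wide, and the gap to the next group was 1 peak. Smad3 held 2, 2 and 3 promoter peaks in Tbx1-Cre Ctrl against 1, 1 and 0 in cKO.

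The inhibitory Smads also separated. Smad7 held 7, 6 and 6 distal peaks in Tbx1-Cre Ctrl, 4, 0 and 1 in cKO, with 5, 0 and 6 in Mesp1-Cre Ctrl, and Smad6 held 8, 3 and 3 against 2, 0 and 0, with 4, 0 and 3 in Mesp1-Cre Ctrl. At both genes a Mesp1-Cre library without any distal peak, the second, was the one with the shortest list of its group. An intronic region of Smad6 (chr9:63827989-63828766) was 521 ± 223 bp wide in Tbx1-Cre Ctrl (SD, n = 3) and had a peak in no other library. A region downstream of Smad7 (chr18:75561599-75562197) was 441 ± 187 bp wide in Tbx1-Cre Ctrl, absent from cKO and present in 1 Mesp1-Cre library.

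The receptor-activated BMP effectors held fewer distal peaks. Smad1 held 3, 1 and 2 in Tbx1-Cre Ctrl against 1, 0 and 0, and Smad5 held 1, 2 and 0 against none. Smad4, the common partner, held 4, 3 and 4 against 3, 2 and 2 with a shared value of 3. Smad2 had no distal peak in any library, although its promoter was the widest of the set.

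Distal peaks of the Id genes came to 15, 14 and 11 in Tbx1-Cre Ctrl, 8, 9 and 4 in cKO, with 11, 11 and 11 in Mesp1-Cre Ctrl. All 3 Tbx1-Cre Ctrl libraries lay above the cKO ones. Id3 held 8, 6 and 5 distal peaks in Tbx1-Cre Ctrl, 4, 4 and 3 in cKO, with 5, 5 and 4 in Mesp1-Cre Ctrl. The groups of the Tbx1-Cre lineage were 1 peak apart, and with equal numbers of peaks per library the difference turned from -2.67 to 0.67 peaks. Id2 held 2, 4 and 2 distal peaks in Tbx1-Cre Ctrl, 1, 1 and 0 in cKO, with 2, 2 and 3 in Mesp1-Cre Ctrl, and with equal numbers its difference turned from -2 to 0.33. A region downstream of Id2 (chr12:25777229-25777677) had a peak in all 6 control libraries and in no cKO library. Id4 held 1 distal peak in every Tbx1-Cre Ctrl library and in 2 cKO libraries.

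Id1 held 4, 3 and 3 distal peaks in Tbx1-Cre Ctrl, 2, 3 and 1 in cKO, with 3, 4 and 4 in Mesp1-Cre Ctrl, with a shared value of 3 between the Tbx1-Cre groups. The intergenic region printed above (chr2:152554867-152556073, centre at -6517 from the TSS) had a peak in all 9 libraries, 1011 ± 120 bp wide in Tbx1-Cre Ctrl, 763 ± 121 bp in cKO, with 683 ± 78.4 bp in Mesp1-Cre Ctrl (SD, n = 3 each). The GGCGCC of the upstream stretch starts at -1099 from the TSS, and the merged region over that stretch (chr2:152560664-152561256) had a peak in 2 Tbx1-Cre Ctrl, 3 cKO and 3 Mesp1-Cre libraries. Called peaks covered the GGCGCC itself in 4 of 9 libraries, namely Tbx1-Cre Ctrl 3, cKO 2 and Mesp1-Cre Ctrl 1 and 2. This region straddles the 1 kb limit, so that a peak in it was counted as promoter or as distal according to its midpoint.

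Bmper, a secreted BMP-binding modulator of endothelial and cardiac BMP signals, held 7, 7 and 7 distal peaks in Tbx1-Cre Ctrl, 1, 1 and 1 in cKO, with 8, 2 and 3 in Mesp1-Cre Ctrl. Neither Tbx1-Cre group varied, while the Mesp1-Cre libraries ranged from above the Tbx1-Cre Ctrl value to just above that of cKO. The upstream intergenic region chr9:23016723-23017299 was 432 ± 184 bp wide in Tbx1-Cre Ctrl (SD, n = 3), and the region chr9:23008820-23009350, also upstream, 365 ± 134 bp. Each had a peak in no cKO and in 1 Mesp1-Cre library.

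Fst (follistatin), which binds activins, held 2, 2 and 3 distal peaks in Tbx1-Cre Ctrl, 1, 0 and 0 in cKO, with 1, 1 and 2 in Mesp1-Cre Ctrl. Grem1 (gremlin 1) showed no difference in number, with 1 distal peak in each of the 9 libraries. It lay in a merged intronic region (chr2:113596591-113598442) that held a single peak of 1228, 1335 and 1275 bp in the Tbx1-Cre controls. In cKO the first library had 1 peak of 1060 bp there, whereas the second had a pair of 335 and 433 bp and the third a pair of 593 and 250 bp, of which the piece nearer the TSS counts as a promoter peak. Widths at this region therefore set whole calls beside split ones. Nog (noggin) held 2, 1 and 3 distal peaks against 1, 1 and 1, and Chrd (chordin) 1, 0 and 1 against none.

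Merging the peaks of all libraries gave 208 distal regions at the 40 loci. Of these, 20 (9.62%) had a peak in all 3 Tbx1-Cre Ctrl and no cKO library, against 7.78% of 37894 distal regions near any protein-coding gene. With the promoter regions of Bmp3, Acvr1 and Smad3 the number was 23 of 268 (8.58%), against 6.23% of 53764 regions. The opposite pattern was seen at 0 of the 268 regions and at 10 of the 53764 (0.0186%). Of the 20 distal regions, 15 lay in introns, 3 upstream and 2 downstream between genes. Their presence in the mesodermal lineage varied: 13 of 20 (65%) had a peak in no Mesp1-Cre library, against 47.1% of 2950 such regions genome-wide, and 3 of 20 (15%) had a peak in all 3, against 11.3%. Without the first Mesp1-Cre library, 14 of 20 (70%) had no Mesp1-Cre peak, against 67.8% of the 2950, and 3 of 20 had a peak in both others, against 11.8%. Those 3 were the Acvr1, Bmpr1b and Id2 regions above. A distal peak in all 9 libraries was found at 16 regions (7.69%, against 6.55% of all distal regions). Beside those at Bmpr2, Grem1, Id1 and Tgfbr3, the 5 widest included a region in the Tgfb1 window (chr7:26496407-26497427), which overlaps a UTR exon of the neighbouring gene Ccdc97.

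A promoter peak was present in all 9 libraries at 27 of the 40 genes (67.5%), and at 48.1% of all protein-coding genes. Fewer promoter peaks in every cKO library were found at 3 of 38 pathway genes with any (Bmp3, Acvr1 and Smad3, 7.89%), beside 3.21% of all genes, and the median difference was 0 for both.

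Over the 27 pathway genes with a promoter peak in all 6 Tbx1-Cre libraries, the median width of the widest promoter peak was 924 ± 63.2 bp in the Tbx1-Cre controls and 705 ± 33.6 bp in cKO (SD, n = 3 each). Over 10910 genes it was 877 ± 22.8 bp and 689 ± 54.6 bp. The peak was narrower in every cKO library at 15 of the 27 (Bmp2, Bmp6, Tgfb3, Bmpr1b, Acvr2a, Tgfbr1, Tgfbr2, Tgfbr3, Smad1, Smad5, Id1, Id3, Id4, Chrd and Bmper, 55.6%), beside 38.9% of all genes. A lower mean in cKO was seen at 25 of the 27 (92.6%) and at 94.9% of all genes, so that the direction was that of promoters in general.

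A promoter region can be called as several peaks, and the widths below are those of the widest piece. At Smad1 the widths were 1247, 1051 and 1469 bp in Tbx1-Cre Ctrl, 630, 418 and 432 bp in cKO, with 596, 618 and 609 bp in Mesp1-Cre Ctrl. The Smad1 promoter was called as 2 peaks in Tbx1-Cre Ctrl 1 and 2 and in cKO 1 and 3. In cKO 3 the pieces were of similar width, 409 and 432 bp. The Tbx1-Cre Ctrl libraries stood apart from both other groups, which overlapped. Smad1 and Bmp2 had the largest differences in mean width of the 27 and were named after their values were seen. Bmp2 measured 482, 1312 and 1323 bp in Tbx1-Cre Ctrl against 252, 276 and 438 bp in cKO, with a control library close to the mutant ones. This promoter was called as 2 peaks in Tbx1-Cre Ctrl 1, cKO 1 and cKO 2, and as 1 peak in the others of these groups, so that the narrow values include pieces of split calls.

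The 5 widest promoter peaks over all 9 libraries belonged to Smad2, Bmpr1a, Smad7, Bmpr1b and Tgfbr1. Smad2 measured 1163, 904 and 916 bp in Tbx1-Cre Ctrl, 1370, 843 and 1268 bp in cKO, with 1402, 1100 and 1240 bp in Mesp1-Cre Ctrl. Bmpr1a measured 525, 1215 and 1387 bp in Tbx1-Cre Ctrl, 1066, 1167 and 1007 bp in cKO, with 911, 880 and 1524 bp in Mesp1-Cre Ctrl. At Smad2 and Bmpr1a the mean was higher in cKO than in Tbx1-Cre Ctrl, the exceptions among the 27, and their groups overlapped. Split calls enter both means. The Bmpr1a promoter was called as 2 peaks of 227 and 525 bp in Tbx1-Cre Ctrl 1. Its single peaks in Tbx1-Cre Ctrl 2 and 3 were wider than all cKO peaks. The Smad2 promoter was called as 2 peaks in every Tbx1-Cre Ctrl library and in cKO 2 and 3. Smad7 measured 657, 1341 and 1255 bp in Tbx1-Cre Ctrl, 742, 1273 and 940 bp in cKO, with 1170, 590 and 1228 bp in Mesp1-Cre Ctrl, again with overlap. Bmpr1b measured 1164, 1053 and 1128 bp in Tbx1-Cre Ctrl, 885, 701 and 820 bp in cKO, with 1150, 1130 and 1060 bp in Mesp1-Cre Ctrl. Tgfbr1 measured 1191, 1101 and 1258 bp in Tbx1-Cre Ctrl, 796, 1002 and 775 bp in cKO, with 1110, 991 and 758 bp in Mesp1-Cre Ctrl. Bmpr1b was thus as wide in Mesp1-Cre Ctrl as in Tbx1-Cre Ctrl and narrower in cKO alone, whereas Tgfbr1 in Mesp1-Cre Ctrl overlapped both. Smad7 was called as 2 peaks in Tbx1-Cre Ctrl 1, cKO 1 and Mesp1-Cre Ctrl 2. Bmpr1b in cKO 2 and Tgfbr1 in Mesp1-Cre Ctrl 3 were also split into 2 peaks.

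**Figure D4:**
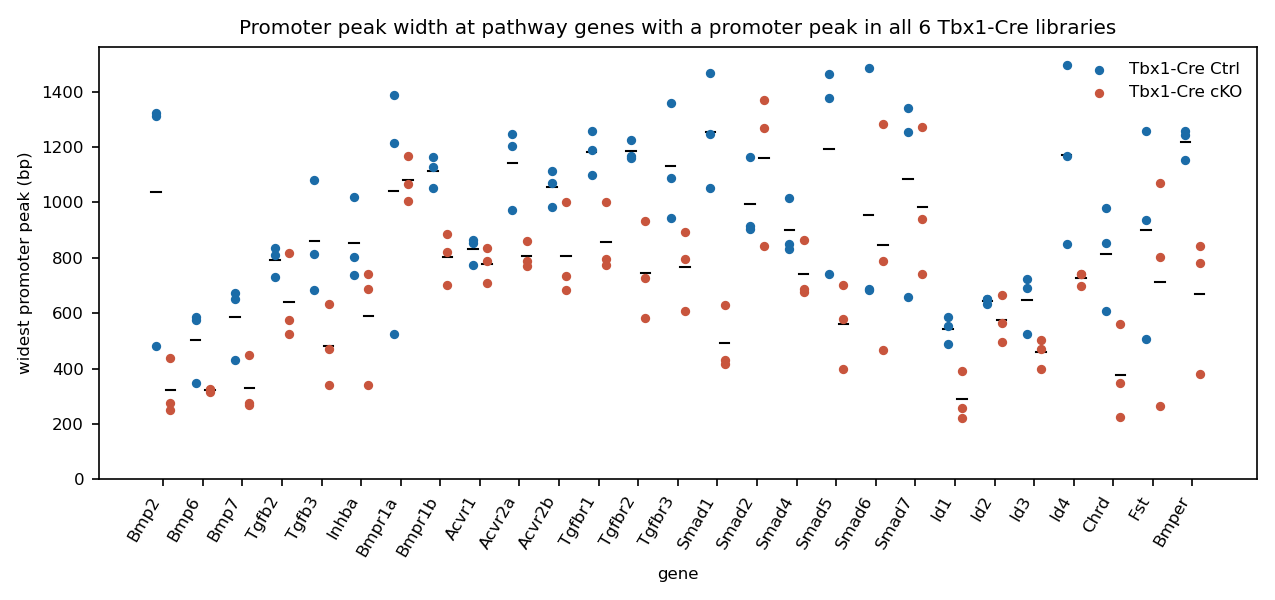
Width of the widest promoter peak (bp, vertical axis) at the 27 pathway genes with a promoter peak in all 6 Tbx1-Cre libraries (horizontal axis), with a point per library and a line at the mean of 3. At Smad1 the Tbx1-Cre Ctrl points lie between 1051 and 1469 bp and the cKO points between 418 and 630 bp, while Smad2 and Bmpr1a overlap between the groups. A promoter called as several peaks, as Smad1 was in some libraries, is shown by its widest piece.

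The Mesp1-Cre lists were used in the study to find which regions are open in mesoderm. Of 38 pathway genes with a distal peak in at least 1 of the 6 control libraries, 6 held fewer distal peaks in every Mesp1-Cre Ctrl library than in every Tbx1-Cre Ctrl library (Bmp7, Bmpr1b, Acvr1, Tgfbr2, Tgfbr3 and Smad3, 15.8%), beside 9.63% of 15372 genes. Without the first Mesp1-Cre library it was 12 pathway genes, beside 22.5% of all genes. None held more in every Mesp1-Cre library, beside 0.416% of all genes. The median difference was -0.67 over the 38 genes and -0.33 over all genes tested. All 6 genes are among the 14 that differed between cKO and Tbx1-Cre Ctrl, but both comparisons use the same Tbx1-Cre Ctrl libraries, so that the overlap is no separate result.

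Over the 3 groups together, 39 pathway genes had a distal peak in at least 1 library. The exact permutation test over the 9 libraries gave an unadjusted p under 0.05 for 10 of them and for 1664 of 15512 genes. After Benjamini-Hochberg adjustment over all genes tested, 0 of 39 passed 0.05, beside 0% of all genes, and the lowest adjusted p among the pathway genes was 0.386.

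Among 55 other genes of the pathways (further ligands, receptors, extracellular modulators, Smad partners and targets), 52 had a distal peak in a Tbx1-Cre library and 15 of these (beside 20.7% of all genes) held fewer in every cKO library: Bmp1, Gdf1, Lefty2, Smad9, Fstl1, Chrdl1, Chrdl2, Twsg1, Smurf1, Ltbp1, Cer1, Rgma, Rgmb, Ski and Tll1. None held more in every cKO library. Promoter peaks were fewer at 3 of 41 (Chrdl1, Tgif1 and Tll1), beside 3.21% of all genes, and the promoter peak was narrower in every cKO library at 12 of 24, beside 38.9%. In Mesp1-Cre Ctrl, 10 of 52 held fewer distal peaks than in Tbx1-Cre Ctrl, beside 9.63%.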

How the data were processed

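ATAC-seq peak intervals of 9 libraries, as deposited by the authors, were used. Each list gives chromosome, start and end on mm9, with no height, score or p-value. Per the labels, the submitters' processing notes name Bowtie2 2.3.4.3 and MACS2. According to the study's methods, peaks were called per library. Read numbers were not used here, so depth is unknown, and absence of a call does not show that chromatin was closed.

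Peaks were assigned by midpoint to GENCODE mouse release 1 genes (NCBIM37, mm9) within 20 kb. Width was that of the widest promoter peak, and for a merged region that of its widest peak in each library. Peaks sharing at least 1 bp were merged into regions. Groups were compared by exact two-sided permutation tests (20 relabellings for 3 against 3, and 280 divisions for 3 groups) in Python 3.11.15 with numpy 2.4.6, pandas 2.3.3 and scipy 1.17.1. A gene was counted when its groups did not overlap. The code was tested on simulated data. Replicates are separate libraries per the labels. Each p-value is the share of relabellings or divisions of the libraries with a group difference at least as large as the observed one.

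The 40 genes and all gene lists were chosen with earlier results of these data known. All genes were named. Values per library were given for those whose groups did not overlap in distal peaks, and for the 5 with the widest promoter peaks. Named regions were up to 12 distal ones with a peak in 3 Tbx1-Cre Ctrl and 0 cKO libraries, by mean width, and the 5 widest distal ones open in all 9. Further genes and regions (Bmp2, Bmp4, Bmp5, Smad1, Id1, Id2 and others) and the bands of distal peaks were chosen after their values were seen. The sequences were chosen among these regions, with a stretch upstream of Id1.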

Additional observations from a re-analysis of the deposited data

How the results depend on the processing

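The counts moved most when an equal number of the widest peaks was kept, which changes list length and selects on width at once. Genes with fewer distal peaks in every cKO library went from 14 to 0 with the 19772 widest peaks per library. Over all genes the share was 2.21%. Genes with fewer promoter peaks went from 3 to 0, beside 0.303% of all genes. Genes with fewer distal peaks in Mesp1-Cre Ctrl went from 6 to 1, beside 3.4%, and those with more from 0 to 1, beside 3.43%. Regions in all Tbx1-Cre Ctrl and no cKO library went from 23 of 268 to 2 of 131. The share of peaks at the 40 loci turned from -0.0353 to 0.0185 percentage points (cKO minus Tbx1-Cre Ctrl), Id2 to 0.333 and Id3 to 0.667 distal peaks. Keeping the widest 75% of each list gave 12 genes with fewer distal peaks in every cKO library, beside 19% of all genes. Of the 14 genes, 9 were among them. Fewer promoter peaks were found at 0 genes, beside 3.13% of all genes. In Mesp1-Cre Ctrl, 3 genes held fewer distal peaks and 1 held more, beside 9.41% and 0.379%. Regions in all Tbx1-Cre Ctrl and no cKO library numbered 13 of 201. For these settings no share over all regions is given, so the region counts cannot be read as particular to the 40 loci.

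Leaving out a library can only keep or add separated genes, by construction. It gave 14 to 23 genes with fewer distal peaks in cKO (23 without Tbx1-Cre Ctrl 2, beside 32.2% of all genes). Genes with fewer promoter peaks numbered 3 to 5 (5 without Tbx1-Cre Ctrl 1 or 2, beside 4.77% and 5.18%). Those with fewer distal peaks in Mesp1-Cre Ctrl numbered 6 to 12 (10 without Tbx1-Cre Ctrl 2, beside 17.5%, and 12 without Mesp1-Cre Ctrl 1, beside 22.5%). Regions numbered 24 to 44 of 268 (41 without Tbx1-Cre Ctrl 2, 44 without cKO 1), again without a share over all regions. Deviations of same-numbered libraries correlated at 0.278, 0.03 and 0.165 (Tbx1-Cre Ctrl with cKO) and at 0.254, 0.249 and -0.0642 (with Mesp1-Cre Ctrl), so that the numbers were not taken to pair libraries. With a replicate block, 21 genes held fewer distal peaks in cKO, beside 29.2% of all genes, and 12 in Mesp1-Cre Ctrl, beside 17.1%. Windows of 10 kb and 50 kb, a promoter limit of 2 kb, all annotated start sites, any overlap with the window and a peak over at least 50% of the region kept every count within 1.5 times the value reported. The lists hold no heights, so graded differences at a shared peak could only be read from its width.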
